A study of Mus musculus with 12 samples.

Results

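NF-kB is a family of transcription factors that is held in check by inhibitor proteins, several of which NF-kB itself induces. The genes described here are 9 genes of this family: the subunits Nfkb1, Nfkb2, Rela and Relb, the inhibitors Nfkbia and Nfkbib, the nuclear inhibitor-like proteins Nfkbiz and Bcl3, and the feedback enzyme Tnfaip3. They were chosen by gene symbol, and all 9 were found among the 13552 genes of the expression table and among the 11240 genes that were tested. RNA was sequenced from the hearts of 12 mice, with 3 mice in each of 4 groups, at 9 h after surgery. The groups were wild-type mice with a sham operation (WT sham), wild-type mice with transverse aortic constriction (WT TAC), knock-in mice with a sham operation (KI sham) and knock-in mice with TAC (KI TAC). TAC narrows the aortic arch, so that the left ventricle has to eject against a raised pressure.

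The knock-in allele changes the amino acid S14A in Bcl-xL, the mitochondrial survival protein encoded by Bcl2l1, so that this serine can no longer be phosphorylated. The KI mice were homozygous by the study's account, which the labels do not state. By the study's methods the allele was made in R1 embryonic stem cells, its selection cassette was removed with CMV-Cre, and the line was backcrossed to C57BL/6J for more than 8 generations. The allele sits in the germline, so every cell type of the heart carries it, in both KI groups. The strain is given as C57BL/6 for all 12 mice. The methods describe male mice that were 8 to 10 weeks old at surgery, wild-type mice bought from a supplier, and no littermate controls. Genotype and colony of origin therefore cannot be told apart. The mice were compared at a single time, and each library is 1 mouse.

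In the resting cell the subunits are bound in the cytoplasm by IkB proteins such as IkB-alpha (Nfkbia) and IkB-beta (Nfkbib), and by the unprocessed precursors of p50 (Nfkb1) and p52 (Nfkb2). Cytokine and Toll-like receptors activate a kinase that marks the IkB proteins for destruction, and the freed dimers, of which p65 (Rela) with p50 is the classical one, enter the nucleus. A slower route runs through RelB and p52. Rela activates Nfkbia and Tnfaip3 (A20, an enzyme that edits ubiquitin on upstream adaptors) and thereby limits its own activity, while the atypical proteins IkB-zeta (Nfkbiz) and Bcl-3 (Bcl3) act inside the nucleus with p50 or p52 dimers. In the heart the pathway is known from inflammation, ischaemia and pressure overload.

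Since several of these genes are known to be induced by NF-kB, their promoters were searched for its motif. RefSeq windows of 300 bases, with 250 before and 50 from the annotated start on GRCm38.p6, were matched for 6 of the 9 genes (9 windows), and were searched on both strands for the NF-kB consensus of 10 bases. Of these 6 genes, 4 held at least 1 match, against 4.51% of 32851 windows and 5.14% of 27025 genes in the whole promoter table. Matches are shown for the 4 genes, with 10 bases on each side, on the strand of the gene and with the matching bases in capitals. A match describes the letters only. The matches lie 2 bases downstream of the start in Bcl3 (chr7:19822734-19822763, minus strand), 29 bases upstream in Nfkbia (chr12:55492657-55492686, minus strand), 125 and 12 bases upstream in Tnfaip3 (chr10:19015516-19015545 and chr10:19015403-19015432, minus strand), and 39 and 11 bases upstream of a start of Nfkb2 (chr19:46304688-46304717 and chr19:46304716-46304745, plus strand). The first Nfkb2 match overlaps another on the opposite strand, and 2 more matches near other starts of this gene are not shown.
Bcl3: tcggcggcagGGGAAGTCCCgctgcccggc
Nfkbia: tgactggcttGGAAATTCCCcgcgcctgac
Tnfaip3, distal: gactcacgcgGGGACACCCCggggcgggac
Tnfaip3, proximal: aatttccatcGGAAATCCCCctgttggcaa
Nfkb2, distal: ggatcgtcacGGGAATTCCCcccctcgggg
Nfkb2, proximal: ggggccgaaaGGGGCTTTCCcggctggagc
The windows of Rela and Nfkbib had no match of these letters. No promoter window was used for Nfkb1, Relb and Nfkbiz.

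Levels are in RPKM, read counts divided by exon length and by library depth, as deposited by the authors. The libraries held between 23650190 and 32455165 reads on genes, as recovered from the steps of low values, and the 9 genes had between 121 reads (the lowest, Tnfaip3) and 6075 reads (the highest, Rela) in a library. Bcl2l1, the mutated gene, had 12.2 ± 4.52 RPKM in WT sham, 10.4 ± 5.88 in WT TAC, 13.9 ± 6.46 in KI sham and 32.4 ± 6.89 in KI TAC (SD, n = 3 each). The KI TAC level was above that of KI sham (log2 fold change 1.26, adjusted p = 0.0354) and that of WT TAC (1.64, adjusted p = 0.0232), and a gene level does not show the codon. Defining heart muscle transcripts such as Myh6 and Tnnt2 were abundant, with the summed level of 6 cardiomyocyte markers between 2639 and 6944 RPKM in all 12 hearts. In samples of whole tissue, fewer cells of a type and less RNA per cell cannot be told apart.

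Under sham conditions the 9 genes spanned a wide range of levels, and the order was the same in both genotypes. Rela was the most abundant, at 32.7 ± 7.20 RPKM in WT sham and 31.8 ± 4.23 in KI sham (SD, n = 3 each). Nfkbia followed with 20.3 and 19.0 RPKM, then Nfkb2 with 13.3 and 14.2, Nfkbib with 12.5 and 12.2, Nfkb1 with 5.82 and 5.85, Relb with 4.53 and 4.64, Bcl3 with 3.67 and 4.08, Nfkbiz with 1.59 and 1.68 and Tnfaip3 with 0.904 and 0.796. Neighbours in this order whose mice overlapped in both sham groups were Nfkb2 with Nfkbib, Nfkb1 with Relb, and Relb with Bcl3, and Nfkbia overlapped with Nfkb2 in KI sham. After TAC Bcl3 moved up from the seventh place to the third in both genotypes, with means of 17.7 RPKM in WT TAC and 17.0 in KI TAC. That place is not resolved, since neighbours overlapped from the second place to the seventh in WT TAC and to the eighth in KI TAC. Rela stayed first in all 4 groups, with no overlap with the next gene.

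**Figure D1:**
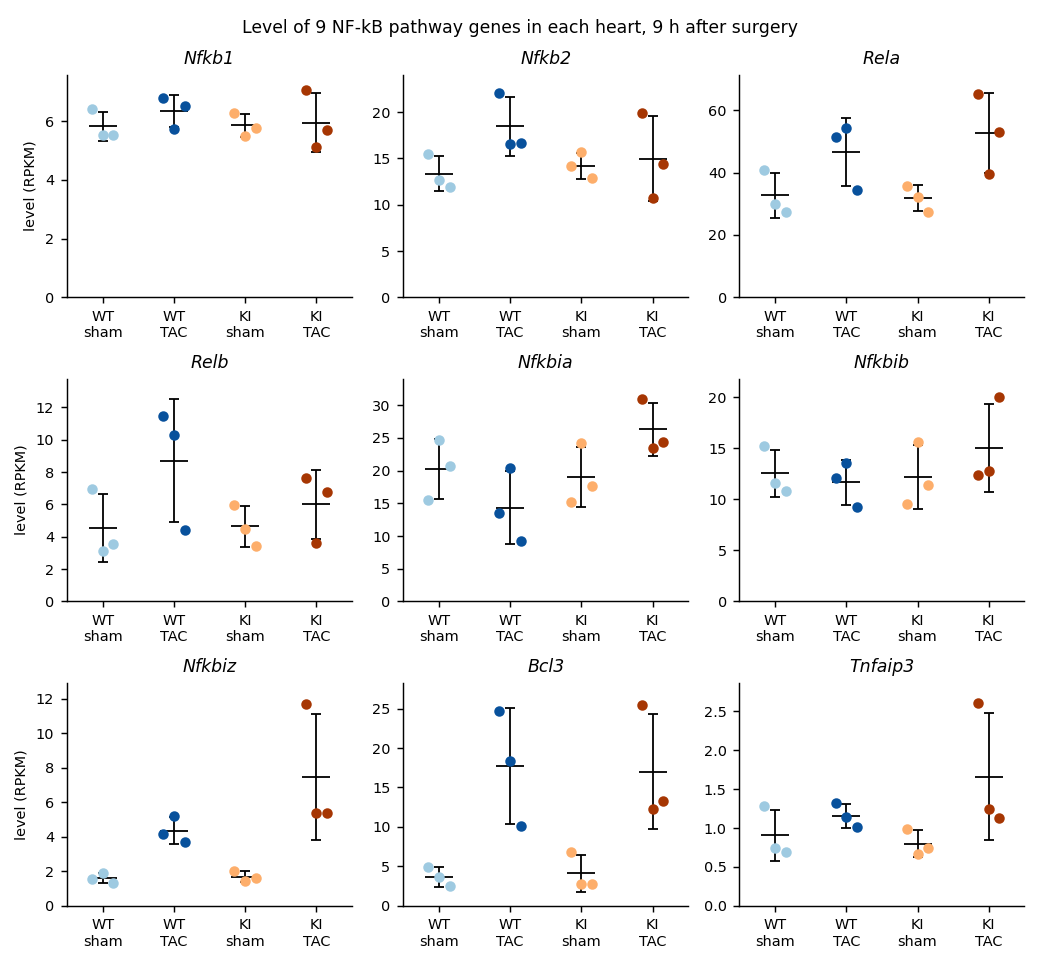
Level in RPKM (y axis, from 0) of the 9 genes in each of the 12 hearts, by group (x axis). Points are mice, the horizontal bar is the mean and the whiskers are 1 SD (n = 3). Bcl3 and Nfkbiz stand higher in both TAC groups than in both sham groups, and Nfkbia stands higher in the KI TAC mice (23.5 to 31.0 RPKM) than in the WT TAC mice (9.23 to 20.4 RPKM).

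The effect of TAC within each genotype was examined first. Of the 9 genes, 2 rose in the WT hearts, Nfkbiz and Bcl3, and the same 2 genes rose in the KI hearts. None of the 9 fell in either genotype. An unadjusted p under 0.05 was found for 3 of the 9 in WT and 4 in KI, all higher after TAC, beside 27.9% of all genes in WT (15.6% higher) and 36.8% in KI (13.2% higher). A gene was called when its adjusted p in limma (Benjamini-Hochberg over the 11240 genes) was under 0.05. Of all genes tested, 11.6% were called in the WT hearts and 6.96% were called higher. In the KI hearts 23.3% were called and 8.57% were called higher. These shares moved with single mice. The 1299 genes called in WT became 596 when WT TAC mouse 7 was left out, and 863, 646 and 677 when WT sham mouse 1, 2 or 3 was. The 2620 called in KI became 1453 when KI sham mouse 3 was left out. Without regard to a test, every TAC mouse lay above every sham mouse for 3 of the 9 genes in WT (Nfkb2, Nfkbiz and Bcl3), against 20.0% of all genes, and for 4 of the 9 in KI (Rela, Nfkbiz, Bcl3 and Tnfaip3), against 13.6% of all genes. The median log2 fold change of the 9 genes was 0.43 in WT and 0.46 in KI, beside 0.04 and -0.10 over all genes tested. A scaling by median ratios brings the medians of all genes close to 0 and raises the log2 fold changes that involve KI TAC. The split of calls over all genes moves with it, from 782 higher of 1299 to 750 of 1469 in WT, from 963 of 2620 to 1436 of 2786 in KI, and from 328 of 1242 to 643 of 1247 between KI TAC and WT TAC.

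Bcl3, a nuclear partner of p50 and p52 that can activate or repress, had the largest fitted log2 fold change of the 9 with TAC in both genotypes, although in KI the ratio of mean RPKM was larger for Nfkbiz (4.43) than for Bcl3 (4.17). In the WT sham mice its level was 4.96, 3.59 and 2.46 RPKM, and in the WT TAC mice it was 24.7, 18.4 and 10.1. The KI sham mice had 6.79, 2.69 and 2.76 RPKM and the KI TAC mice had 25.5, 12.3 and 13.3. All 6 TAC hearts were above all 6 sham hearts, and the TAC groups overlapped each other. Bcl3 rose with TAC in WT by a log2 fold change of 1.96 (SE 0.37, adjusted p = 0.00457) and in KI by 1.84 (SE 0.37, adjusted p = 0.00315). Both calls held in all 12 alternative settings, with adjusted p between 0.00183 and 0.0264 in WT and between 0.00187 and 0.0196 in KI. The gene lies at chr7:19808462-19822770 on the minus strand of GRCm38.

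Nfkbiz (chr16:55811375-55838899, minus strand) encodes a nuclear protein that is needed for a late group of NF-kB targets such as acute phase and neutrophil genes. Its level was 1.56, 1.90 and 1.32 RPKM in the WT sham mice and 4.18, 5.20 and 3.67 in the WT TAC mice. In KI it was 2.03, 1.42 and 1.60 after sham and 11.7, 5.36 and 5.36 after TAC. Every TAC heart was above every sham heart, and every KI TAC heart was above every WT TAC heart, narrowly for KI mice 6 and 7. The log2 fold change with TAC was 1.04 in WT (SE 0.24, adjusted p = 0.0127) and 1.58 in KI (SE 0.24, adjusted p = 0.000537). Without WT sham mouse 3, the WT call was lost (0.96, adjusted p = 0.0548).

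Among the subunits none passed the test in either genotype. Rela (chr19:5637483-5648130, plus strand), which carries a strong activation domain, had 40.9, 29.8 and 27.4 RPKM in the WT sham mice and 51.3, 54.3 and 34.3 in the WT TAC mice. In KI the sham mice had 35.8, 32.1 and 27.4 RPKM and the TAC mice 65.3, 39.6 and 52.9. WT TAC mouse 10 lay inside the range of its sham group, whereas the KI groups did not overlap. The log2 fold change was 0.49 in WT (95% interval -0.02 to 1.01, adjusted p = 0.194) and 0.69 in KI (0.18 to 1.20, adjusted p = 0.0507). The KI value passed the threshold in 5 of 12 alternative settings, with adjusted p between 0.0315 and 0.175.

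Relb (chr7:19606217-19629438, minus strand), the subunit of the slower route, varied widely between mice of a group, with a coefficient of variation of 27.1% to 46.7%. Its level was 6.96, 3.10 and 3.53 RPKM in WT sham, 11.5, 10.3 and 4.40 in WT TAC, 5.96, 4.50 and 3.46 in KI sham and 7.63, 3.61 and 6.76 in KI TAC. WT TAC mice 7 and 9 were the highest of the 12 hearts, and WT TAC mouse 10 lay within the sham range. The log2 fold change was 0.79 in WT (SE 0.34, adjusted p = 0.149) and 0.28 in KI (SE 0.34, adjusted p = 0.577). Without WT TAC mouse 10 the WT value passed the test (1.16, adjusted p = 0.0281).

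Nfkb2 (chr19:46304320-46312385, plus strand), the precursor of p52, had 15.5, 12.7 and 11.9 RPKM in WT sham and 22.1, 16.5 and 16.7 in WT TAC. The KI sham mice had 14.2, 15.7 and 12.9 RPKM and the KI TAC mice 19.9, 10.7 and 14.4. The WT groups did not overlap and the KI TAC mice spread on both sides of their shams. The log2 fold change was 0.43 in WT (-0.02 to 0.89, adjusted p = 0.199) and 0.03 in KI (-0.42 to 0.49, adjusted p = 0.925). Nfkb1 (chr3:135584655-135691547, minus strand), the precursor of p50, had the smallest ratio of highest to lowest heart among the 9 genes (1.38, between 5.12 and 7.05 RPKM), with log2 fold changes of 0.11 in WT (-0.22 to 0.43) and 0.01 in KI (-0.31 to 0.34).

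Since the values are per exon length, the subunits can be set against each other within a library. Of the summed RPKM of Nfkb1, Nfkb2, Rela, Relb and Rel (c-Rel, the remaining subunit), Rela made up 56.7% in WT sham, 56.5% in WT TAC, 55.0% in KI sham and 64.4% in KI TAC. In KI the 3 TAC hearts lay between 63.7% and 64.7% and the 3 sham hearts between 54.3% and 55.8%, whereas WT TAC ranged from 53.2% to 61.3%. Nfkb2 made up 18.2% in KI TAC, between 17.5% and 19.4%, beside 24.8% in KI sham, between 22.0% and 26.8%. Nfkb1 made up 6.88% to 8.36% in KI TAC, beside 9.38% to 11.5% in KI sham. A larger share of Rela lowers the other shares. The mean level of Nfkb2 itself was 14.2 RPKM in KI sham and 15.0 in KI TAC. These shares are of RNA and say nothing of protein or of nuclear dimers.

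The inhibitors Nfkbia and Nfkbib did not pass the test with TAC in either genotype. Nfkbia (chr12:55489410-55492647, minus strand), whose protein strips Rela dimers from DNA and returns them to the cytoplasm, had 15.5, 24.7 and 20.6 RPKM in WT sham and 13.5, 20.4 and 9.23 in WT TAC. In KI it had 15.2, 24.2 and 17.7 RPKM after sham and 31.0, 23.5 and 24.4 after TAC. WT TAC mice 7 and 10 lay below all shams, and KI TAC mouse 5 lay above all shams. The log2 fold change was -0.51 in WT (SE 0.27, 95% interval -1.08 to 0.06, adjusted p = 0.227) and 0.46 in KI (SE 0.27, -0.11 to 1.03, adjusted p = 0.224). Nfkbib (chr7:28758251-28767512, minus strand), which holds NF-kB more persistently, ranged from 9.27 to 20.0 RPKM, and its groups overlapped in every comparison. Its log2 fold change was -0.10 in WT (-0.60 to 0.40) and 0.28 in KI (-0.22 to 0.78).

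Tnfaip3 (chr10:19000910-19015657, minus strand) was the least abundant of the 9 genes. Its level was 1.28, 0.749 and 0.685 RPKM in WT sham, 1.32, 1.14 and 1.01 in WT TAC, 0.991, 0.660 and 0.738 in KI sham and 2.60, 1.25 and 1.13 in KI TAC. The KI TAC mice were above all KI shams, with mouse 5 far above the other two, while the WT groups overlapped through sham mouse 1. The log2 fold change was 0.19 in WT (SE 0.19, adjusted p = 0.546) and 0.53 in KI (SE 0.19, adjusted p = 0.0570). At such low levels the added 1 RPKM shrinks a fold change, and with limma-voom on the recovered reads the KI value was 0.98 (adjusted p = 0.0442).

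**Figure D2:**
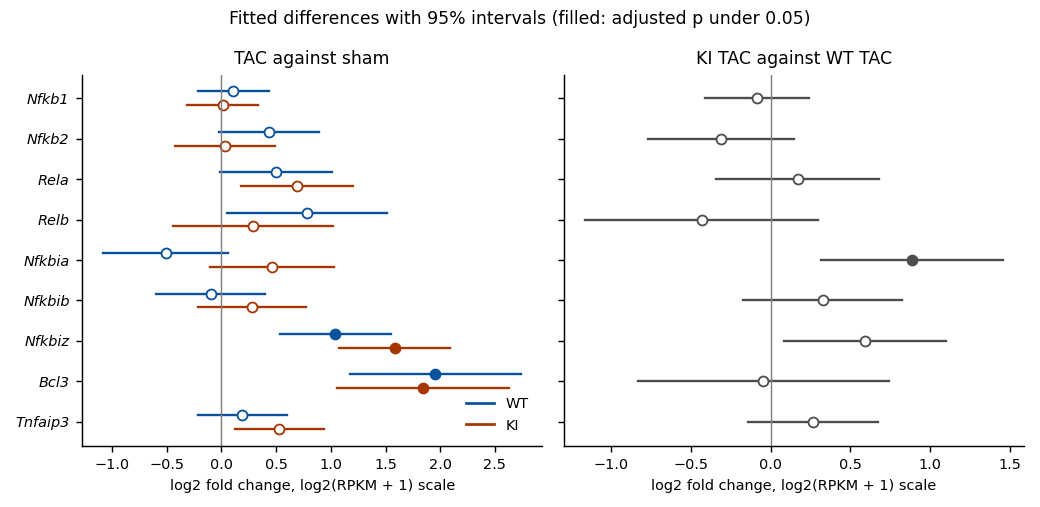
Log2 fold changes (x axis, on the log2(RPKM + 1) scale) with 95% intervals for the 9 genes (y axis), for TAC against sham in WT and KI on the left and for KI TAC against WT TAC on the right. Filled points passed an adjusted p of 0.05. Bcl3 and Nfkbiz are filled in both genotypes on the left, and Nfkbia alone is filled on the right, at 0.88.

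The TAC hearts of the 2 genotypes were then compared, which asks how the NF-kB genes of pressure-loaded hearts differ with the allele, in the same TAC mice as above. Of the 9 genes, 1 was higher in KI TAC, Nfkbia, and none was lower. Over all genes tested 11.0% were called in this comparison and 2.92% were called higher. The count over all genes, 1242 with 328 higher, became 162 with 49 higher when WT TAC mouse 7 was left out and 186 with 61 higher when KI TAC mouse 6 was. It became 646 when KI TAC mouse 5 was left out and 797 when WT TAC mouse 10 was. The KI TAC mice did not overlap the WT TAC mice for 2 of the 9 genes, Nfkbia and Nfkbiz, against 10.1% of all genes in this direction. The median of the 9 log2 differences was 0.17, beside -0.12 over all genes.

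For Nfkbia the log2 difference was 0.88 (SE 0.27, 95% interval 0.31 to 1.46, adjusted p = 0.0483), with means of 26.3 ± 4.10 RPKM in KI TAC and 14.4 ± 5.61 in WT TAC (SD, n = 3 each). The call stood close to the threshold. It held in 4 of 12 alternative settings, and adjusted p ranged from 0.0126 to 0.15. It was lost when WT TAC mouse 7 (0.88, adjusted p = 0.148), WT TAC mouse 10 (0.62, 0.15), KI TAC mouse 5 (0.77, 0.125), KI TAC mouse 6 (0.96, 0.111) or KI TAC mouse 7 (0.93, 0.0565) was left out. Nfkbiz was higher in KI TAC by 0.59 (0.09 to 1.10), which did not pass the test (adjusted p = 0.112). For Bcl3 the difference was -0.05 with an interval of -0.83 to 0.74, which leaves room for a sizeable difference in either direction, and its sign turned under median-ratio scaling (0.10). The other 6 differences lay between -0.43 for Relb and 0.33 for Nfkbib, with adjusted p of 0.340 or more.

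Glucocorticoid-responsive genes moved in the same comparison as Nfkbia, itself a known target of the glucocorticoid receptor. Of 8 such genes 6 were higher in KI TAC than in WT TAC, beside 2.92% of all genes, among them Fkbp5 (2.2, adjusted p = 0.0239) and Sgk1 (1.70, adjusted p = 0.00188). Their summed level was 197, 613 and 146 RPKM in WT TAC mice 7, 9 and 10 and 851, 1284 and 591 in KI TAC mice 5, 6 and 7. Pdk4, a kinase that inhibits pyruvate dehydrogenase, made up 65.8, 344 and 35.2 RPKM of these sums in WT TAC and 549, 1033 and 339 in KI TAC. The other 7 genes summed to 131, 269 and 111 RPKM in WT TAC and to 302, 252 and 252 in KI TAC, so that this sum overlapped between the groups. Klf9 had the largest mean of these 7 in both TAC groups. Taken singly, Fkbp5, Sgk1, Per1, Tsc22d3 and Errfi1 were higher in every KI TAC heart than in every WT TAC heart. Pdk4, Klf9 and Zbtb16 overlapped. Between the shams Pdk4 differed by 1.54 on the log2 scale (adjusted p = 1). Klf9 was not called and had a mean of 100.2 RPKM in WT TAC and 80.1 in KI TAC. With TAC in WT, 1 of the 8 fell (Tsc22d3, -1.08, adjusted p = 0.0188), where 11.6% of all genes were called in either direction. With TAC in KI, 4 of the 8 rose, where 8.57% of all genes were called higher. The part of these glucocorticoid-responsive genes in the Nfkbia result was not tested.

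Between the sham groups none of the 9 genes was called by limma, none had an unadjusted p under 0.05, and limma-voom called none either. Of all genes 0.0178% were called in this comparison. The log2 differences ran from -0.09 for Nfkbia to 0.09 for Nfkb2. The intervals were widest for Bcl3, from -0.72 to 0.85, and narrowest for Nfkb1, from -0.32 to 0.33.

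Whether TAC acted differently in the 2 genotypes was tested as an interaction. None of the 9 genes passed, nor did any other gene (0.00% of 11240 called, by limma and by limma-voom). The count over all genes moved with single TAC mice, to 240 when WT TAC mouse 9 was left out, 182 when KI TAC mouse 7 was and 8 when WT TAC mouse 10 was, while none of the 9 genes was called with any mouse left out. Before adjustment 1668 genes had p under 0.05, and Nfkbia was the only one of the 9 that did. Its interaction was 0.97 (SE 0.38, 95% interval 0.17 to 1.78, adjusted p = 0.259). The interaction was 0.54 for Nfkbiz (-0.17 to 1.26, adjusted p = 0.450), 0.34 for Tnfaip3 (-0.23 to 0.91, adjusted p = 0.550) and -0.50 for Relb (-1.54 to 0.53, adjusted p = 0.630). A difference between genotypes in the TAC response of these genes was therefore not shown.

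The balance of inhibitor and subunit was also followed within each library, where scaling between libraries cancels. The Nfkbia to Rela ratio of RPKM was 0.379, 0.828 and 0.755 in WT sham and 0.263, 0.375 and 0.269 in WT TAC. In KI it was 0.424, 0.752 and 0.646 after sham and 0.475, 0.593 and 0.461 after TAC. All WT TAC hearts were below all WT sham hearts, though mouse 9 (0.375) came within a small margin of sham mouse 1 (0.379), and all KI TAC hearts were above all WT TAC hearts. The mean log2 ratio differed by -1.05 with TAC in WT (SE 0.39, exact permutation p = 0.1, two-sided), by -0.22 in KI (SE 0.27, exact p = 0.5) and by 0.76 between KI TAC and WT TAC (SE 0.20, exact p = 0.1). With 3 mice against 3, 0.1 is the smallest p this test can give.

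The Bcl3 to Rela ratio was higher with TAC in WT by 1.73 on the log2 scale (SE 0.25) and in KI by 1.41 (SE 0.40), without overlap in either genotype (exact permutation p = 0.1 each, two-sided). The Nfkb2 to Nfkb1 ratio, of the precursors of p52 and p50, was 2.42, 2.29 and 2.15 in WT sham and 3.25, 2.88 and 2.57 in WT TAC, a difference of 0.34 (SE 0.11, exact p = 0.1). In KI the groups overlapped (0.02, SE 0.17, exact p = 1). Relb to Rela was 0.223, 0.189 and 0.128 in WT TAC and 0.117, 0.0910 and 0.128 in KI TAC, lower in KI by 0.67 (SE 0.28, exact p = 0.1), with the nearest mice, WT 10 and KI 7, almost level. The ratios Nfkbib to Nfkbia and Tnfaip3 to Rela overlapped between the groups of all 3 comparisons.

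**Figure D3:**
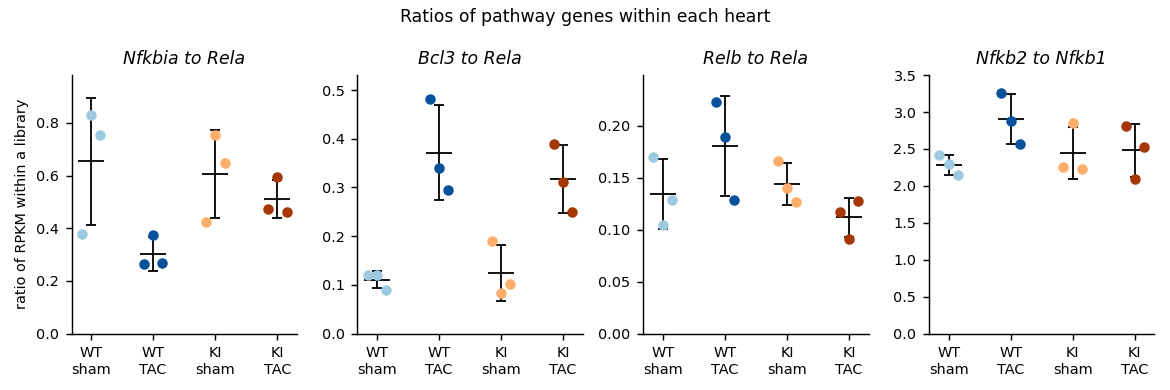
Ratio of RPKM between 2 genes within each library (y axis, from 0) by group (x axis), for 4 gene pairs. Points are mice, the bar is the mean and the whiskers are 1 SD (n = 3). The Nfkbia to Rela ratio of the WT TAC mice (0.263 to 0.375) lies below that of every other group, and the Bcl3 to Rela ratio is higher after TAC in both genotypes.

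Single hearts stood high or low in their group for several of the 9 genes at once. KI TAC mouse 5 was the highest of its group for 8 of the 9 genes (all but Nfkbib), WT sham mouse 1 for 7, and KI sham mouse 1 for 6. WT sham mouse 3 and WT TAC mouse 10 were each the lowest of their group for 7 genes, and KI TAC mouse 6 was the lowest for 6. The summed level of the 3 neutrophil markers in the table (S100a8, S100a9 and Csf3r) was 20.3 RPKM in KI TAC mouse 5, beside 11.3 and 4.18 in mice 6 and 7. In WT TAC mice 7, 9 and 10 it was 5.37, 9.87 and 3.69.

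Markers of other cells moved with TAC as well. Over all genes 11.6% were called with TAC in WT (6.96% higher) and 23.3% in KI (8.57% higher). Between the TAC groups 11.0% were called (2.92% higher). The neutrophil markers summed to between 0.395 and 1.27 RPKM in the 6 sham hearts and to between 3.69 and 20.3 in the 6 TAC hearts, and 2 of the 3 rose in WT and 3 in KI. Each was under 1 RPKM in every sham heart and passed the filter only through TAC hearts. The same holds for Itgam, a macrophage marker called in both genotypes, and for the smooth muscle marker Cnn1. The rises of these markers were thus partly set by the filter. The macrophage markers summed to between 65.5 and 111 RPKM in WT sham and between 134 and 194 in WT TAC, with 4 of 5 tested higher, and to between 71.1 and 96.3 in KI sham and between 77.6 and 104 in KI TAC, with 1 higher and 1 lower. Between KI TAC and WT TAC 2 of the 5 macrophage markers were lower in KI, Adgre1 (-1.15, adjusted p = 0.0135) and Csf1r (-0.91, adjusted p = 0.00913). Fibroblast markers ran from 126 to 549 RPKM in WT TAC, the top value in mouse 10, and from 104 to 156 in WT sham, with no call among 5, and from 85.3 to 155 in KI TAC and 123 to 205 in KI sham, where Lum was lower after TAC (-1.14, adjusted p = 0.0476). Most of the top value was Col1a1 (461 RPKM). Mean Dcn (41.6 RPKM in WT sham and 41.2 in WT TAC) and Tcf21 (4.92 and 5.36) were near level. Mean Pdgfra (4.66 and 7.49) and Lum (9.30 and 16.2) were higher in WT TAC. The cardiomyocyte markers summed to between 4955 and 6944 RPKM in WT sham, 2639 and 3920 in WT TAC, 4786 and 5410 in KI sham and 3809 and 6103 in KI TAC. Myh6 made up most of these sums, with a mean of 4115 RPKM in WT sham and 1883 in WT TAC. Mean Actn2 (598 and 626) and Ryr2 (103 and 96.7) were near level, and mean Tnnt2, Tnni3 and Pln were lower in WT TAC. Of the 6 cardiomyocyte markers Myh6 fell with TAC in WT (-1.15, adjusted p = 0.0129), Pln fell in KI (-0.93, adjusted p = 0.0281) and Tnni3 was higher in KI TAC than in WT TAC (0.95, adjusted p = 0.0384). Of 4 smooth muscle markers Cnn1 rose with TAC in WT (1.16, adjusted p = 0.00905) and was lower between the TAC groups in the KI mice (-0.98, adjusted p = 0.0261), and the summed level of the 4 was between 54.0 and 129 RPKM in WT TAC and between 41.2 and 81.9 in KI TAC. The 3 red cell markers summed to between 110.5 and 124 RPKM in WT sham and between 57.7 and 83.5 in WT TAC, without overlap, and to between 100.3 and 183 in KI sham and between 74.8 and 196 in KI TAC. None of the 3 was called (Hbb-bs in WT -0.87, adjusted p = 0.0956). The endothelial markers summed to between 225 and 322 RPKM in all 12 hearts. The part of these cells in the differences of Bcl3, Nfkbiz and Nfkbia was not tested.

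The genes whose levels followed those of the called genes most closely over the 12 hearts were found by the root mean square difference of log2(RPKM + 1), each gene centred on its own mean. For Nfkbiz they were Ptgs2 (cyclooxygenase 2, 0.167), Ptpn12 (0.174) and Litaf (0.180), beside 0.738 for Nfkbiz about its own mean. Ptgs2 had a mean of 0.0719 RPKM in WT sham, 1.20 in WT TAC, 0.0675 in KI sham and 2.86 in KI TAC. It passed the filter only through TAC hearts, and its ratios of mean RPKM were larger than those of Nfkbiz. The added 1 RPKM shrinks its changes, so its likeness to Nfkbiz holds on this scale only. For Bcl3 the closest genes were Cd44, the hyaluronan receptor (0.252), Enah (0.281) and Sbno2 (0.304), beside 1.05 for Bcl3. Cd44, chosen here for its likeness to Bcl3, had a mean of 0.826 RPKM in WT sham, 5.43 in WT TAC, 0.857 in KI sham and 5.76 in KI TAC. For Nfkbia they were Dnajb5 (0.182), Jdp2 (0.186) and Scarna2 (0.198), beside 0.434 for Nfkbia.

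The wider pathway was described with 6 lists of 87 genes from general knowledge, of which 77 were in the table and 68 were tested. With TAC in WT 21 of the 68 rose and 1 fell, with a median log2 fold change of 0.39, and in KI 30 rose and 1 fell, with a median of 0.37. Over all genes tested 6.96% were called higher in WT and 8.57% in KI. Some of the 68, mostly inducible targets, passed the filter only through TAC hearts. The WT count of 22 called genes fell to 12 without WT TAC mouse 7, and to 13 without WT sham mouse 2 or 3. Between KI TAC and WT TAC 6 were higher and none lower, with a median of 0.10, beside 2.92% of all genes called higher. This last count also moved with the setting: it was 0 with a fit of the 2 groups alone and, with a mouse left out, went down to 0 (KI TAC mouse 6) or up to 14 (KI TAC mouse 7). No gene of the lists was called between the shams or for the interaction by limma or by limma-voom, with 0 and 10 of the 68 at an unadjusted p under 0.05, beside 0.329% and 14.8% of all genes.

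At the top of the pathway, 6 of 9 receptors rose in each genotype, beside 6.96% of all genes called higher in WT and 8.57% in KI. Tnfrsf12a, the receptor of the cytokine TWEAK, had 16.3 ± 7.58 RPKM in WT sham and 101 ± 38.9 in WT TAC, and 16.6 ± 3.3 in KI sham and 242 ± 75.6 in KI TAC (SD, n = 3 each). Its log2 fold change was 2.57 in WT (adjusted p = 0.000554) and 3.77 in KI (adjusted p = 2e-05), and it was higher in KI TAC than in WT TAC (1.28, adjusted p = 0.0326). Cd14 and Tlr4, which sense bacterial lipopolysaccharide together, rose by 1.28 and 1.07 in WT and by 1.28 and 1.04 in KI. Il1r1, the interleukin-1 receptor, rose by 1.01 and 0.82, and Tnfrsf1a, the main TNF receptor, by 0.90 and 1.22. Tnfrsf1b was called in WT (0.76) and Tlr2 in KI (0.60).

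Adaptors and kinases changed less often than receptors, by count and without a test of that difference. Over all genes 6.96% were called higher with TAC in WT, 8.57% in KI and 2.92% between the TAC groups. Of 16 adaptors 2 rose in WT, Myd88 (1.00) and Irak4 (0.44), which couple interleukin-1 and Toll-like receptors to the kinase. In KI 4 rose, Irak3 (1.27), Myd88 (0.89), Irak2 (0.79) and Ripk1 (0.41), and Rnf31, a ligase for linear ubiquitin, fell by 0.64. Irak4 and Ripk1 were under 1 RPKM in every sham heart and passed the filter only through TAC hearts. Irak3, a brake on Toll-like receptor signals, was higher in KI TAC than in WT TAC (0.71, adjusted p = 0.0209), as was Irak2 (0.79, adjusted p = 0.0211). The 7 kinases held 1 call, Map3k8 in KI (0.87), and none in WT. Of 4 further subunit and IkB genes, Nfkbie (IkB-epsilon) rose in WT (0.88, adjusted p = 0.0199) and Rel rose in KI (0.59, adjusted p = 0.0337).

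Of 11 other feedback regulators tested, 1 rose in WT, where 6.96% of all genes were called higher, Otulin, which removes linear ubiquitin (1.12, adjusted p = 0.0216). In KI, where 8.57% of all genes were called higher, 5 rose: Otulin (1.58), Zc3h12a, a ribonuclease for cytokine messages (0.92), Tnip2 (0.72), Birc3 (0.70) and Otud7b (0.49). None of the 11 was called between KI TAC and WT TAC or for the interaction.

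Of 21 inducible targets 11 rose and 1 fell in WT, and 13 rose and none fell in KI. Over all genes tested 6.96% were called higher in WT and 8.57% in KI. Ccl2, Ccl7, Cxcl1, Cxcl5, Lcn2, Mmp9, Ptgs2, Ptx3, Sele and Selp were under 1 RPKM in every sham heart. They passed the filter of 1 RPKM in at least 3 mice only through TAC hearts, so the count of risers was partly set by the filter. The called targets with the largest fitted log2 fold changes in WT were Lcn2, a siderophore-binding protein (3.12), the monocyte chemokines Ccl2 (3.06) and Ccl7 (2.02), Ier3 (1.59), E-selectin Sele (1.54) and the neutrophil chemokine Cxcl5 (1.11). Ptx3 was at 1.12 in WT and did not pass the test (adjusted p = 0.202). In KI they were Lcn2 (4.09), Ccl2 (3.74), the pentraxin Ptx3 (3.24), Ccl7 (2.69), the neutrophil chemokine Cxcl1 (2.15) and Ier3 (2.14). This order holds on the log2(RPKM + 1) scale, where the added 1 RPKM shrinks the change of genes near 0. By mean RPKM, Ier3 went from 25.9 in WT sham to 80.4 in WT TAC and from 28.6 to 125 in KI. The called targets Ptgs2 (0.0719 to 1.20 in WT, 0.0675 to 2.86 in KI), P-selectin Selp (0.0912 to 1.25 and 0.0435 to 1.36) and Cxcl5 (0.0520 to 1.37 and 0.0490 to 2.73), singled out after their values were seen, moved by larger ratios than Ier3 from levels under 0.1 RPKM. As they passed the filter only through TAC hearts, large ratios were partly built into this choice. In KI the median of Ptx3 went from 0.0689 to 11.5 RPKM, with the KI TAC mice between 1.88 and 28.7. The WT TAC mice lay between 0.842 and 1.89 RPKM, so the TAC groups overlapped narrowly for Ptx3. Ccl2 had 0.588 ± 0.153 RPKM in WT sham and 13.3 ± 6.38 in WT TAC, and 0.561 ± 0.171 in KI sham and 20.8 ± 7.75 in KI TAC (SD, n = 3 each). The gene that fell in WT was Sod2, the mitochondrial superoxide dismutase, named after its value was seen (from 35.0 to 22.8 RPKM, -0.60, adjusted p = 0.0342). Between KI TAC and WT TAC Ptx3 (2.15, adjusted p = 0.0269), Cxcl1 (1.28, adjusted p = 0.0153) and Ptgs2 (0.75, adjusted p = 0.0305) were higher in KI. Il6, Tnf and 7 other genes of this list, and Il18r1 among the receptors, were not analysed here.

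**Figure D4:**
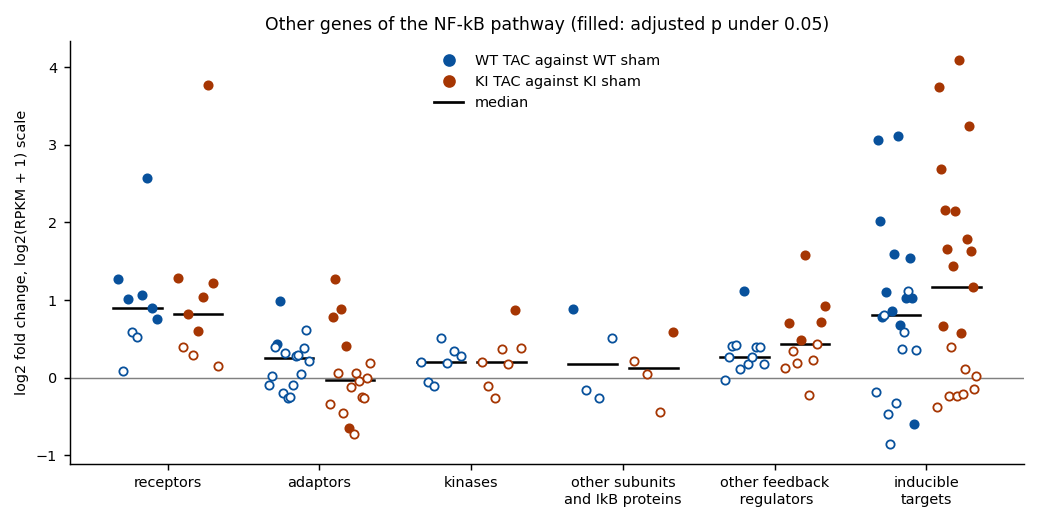
Log2 fold changes with TAC (y axis, on the log2(RPKM + 1) scale) of the 68 tested genes in the 6 pathway lists (x axis), for WT and KI. Points are genes, filled where the adjusted p was under 0.05, and black lines are medians. Receptors and inducible targets lie mostly above 0 in both genotypes, with 6 of 9 receptors called in each, beside 11.6% of all genes in WT and 23.3% in KI. Several inducible targets passed the filter only through TAC hearts.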

How the data were processed

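Hearts of 12 mice were compared by RNA sequencing (poly(A) selection, directional library, single reads). Per the study's methods and the submitters' processing notes, the authors trimmed reads with Trimmomatic 0.39, mapped them to GRCm38 with HISAT2 2.2.1, counted them with HTSeq 0.6.1 and used edgeR 3.18.1. The deposited values are RPKM per Ensembl gene. The setting for strand is not given in the sources used here. Of 13552 genes, 13546 had exon lengths in GENCODE M21. With these, between 97.4% and 98.5% of low values were whole reads (tolerance 0.1), which gave the depths.

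Genes with at least 1 RPKM in at least 3 mice were kept (11240), and log2(RPKM + 1) was fitted with limma 3.58.1 (trend, R 4.3.3), with the 4 groups in 1 fit of 12 mice. Ratios were compared by exact permutation tests. Alternatives were a pseudocount of 0.1, no filter, quantile normalization, median-ratio scaling, limma-voom on recovered reads, a fit of 2 groups, a replicate block, and each mouse left out.

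The 9 genes, the lists and the tests were chosen with earlier results of these data known. Named genes are the 9, at most 6 called genes per pathway list and comparison by size, 3 genes most like each called gene, Bcl2l1, and marker genes where a list is given. Lists for lymphocytes, atrium and adipocytes were not analysed here. Intervals on levels cover the spread between mice only.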

Additional observations from a re-analysis of the deposited data

How the results depend on the processing

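Bcl3 was called with TAC in both genotypes, and Nfkbiz in KI, under all 12 alternatives. Nfkbiz in WT was lost without WT sham mouse 3 only. With TAC in KI, 4 of the 9 genes instead of 2 were called after quantile normalization and with limma-voom, by the addition of Rela and Tnfaip3. Between KI TAC and WT TAC the count fell from 1 to 0 without a filter on low values (Nfkbia, adjusted p = 0.0519), with median-ratio scaling (0.0506) and with a fit of the 2 groups alone (0.103). That last fit also called 0 of 68 pathway genes in place of 6, and 216 genes of all in place of 1242. The cause was not tested. Over all genes, limma-voom called 1265 with TAC in WT, 2730 in KI and 1329 between the TAC groups. With a mouse left out, the members called numbered between 1 and 3 in WT and between 0 and 1 between the TAC groups. The pathway genes called then numbered between 12 (without WT TAC mouse 7) and 23 in WT against 22, with 13 without WT sham mouse 2 or 3. Between the TAC groups they numbered between 0 and 14, with every mouse moving the count of 6 (down to 2 for WT mouse 7 and for KI mouse 5, to 3 for WT mouse 10 and to 0 for KI mouse 6, up to 12 for WT mouse 9 and to 14 for KI mouse 7). For the interaction they numbered between 0 and 1, the 1 without KI TAC mouse 7.

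Changes of sign touched only differences that had not passed the test. Between the TAC groups Nfkb1 was at 0.0293 with quantile normalization and 0.0514 with median-ratio scaling, and Bcl3 at 0.0453 and 0.103. For the interaction Nfkb1 was at 0.0266 and 0.051 under these settings, and Bcl3 at 0.0432 with median-ratio scaling. The Tnfaip3 to Rela log2 ratio in KI was -0.16 with 1 RPKM added to both values. With single mice left out, the log2 fold change with TAC ran from -0.21 to 0.0442 for Nfkbib in WT, from -0.10 to 0.10 for Nfkb1 in KI and from -0.18 to 0.24 for Nfkb2 in KI. Between the TAC groups it ran from -0.20 to 0.000447 for Nfkb1, from -0.0323 to 0.355 for Rela and from -0.38 to 0.22 for Bcl3. Between the shams it ran from -0.0372 to 0.0681 for Nfkb1, -0.14 to 0.14 for Rela, -0.11 to 0.36 for Relb, -0.266 to 0.0588 for Nfkbia, -0.23 to 0.10 for Nfkbib, -0.0418 to 0.133 for Nfkbiz, -0.29 to 0.26 for Bcl3 and -0.157 to 0.0609 for Tnfaip3. The interaction ran from -0.00629 to 0.381 for Rela and from -0.45 to 0.24 for Bcl3. Log2 ratios ran from -0.457 to 0.0634 for Nfkbib to Nfkbia in KI, from -0.0757 to 0.138 for Nfkb2 to Nfkb1 in KI and from -0.22 to 0.0272 for Tnfaip3 to Rela in WT.

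The sham groups share 3 mouse numbers and the TAC groups share 1 (number 7), which is too few for a block there. The deviations of same-numbered sham mice had r = -0.225 for number 1, -0.302 for number 2 and 0.44 for number 3, the last being the highest of all combinations. Deviations from a mean of 3 mice are tied to each other, so these values cannot settle whether the numbers pair the mice. With a replicate block in the sham comparison, 0 of the 9 genes and 0 of the pathway genes were called, as without it, and 0 genes of all in place of 2.

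The intervals of single genes are wide with 3 mice in a group, and Tnfaip3, the least abundant of the 9, rests on 121 to 570 reads a library.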
